A study of Homo sapiens with 10 samples.

Results

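HOX, MEIS and PBX genes were followed in HCT116 cells, a long-established line from a human colorectal carcinoma, across 10 mRNA sequencing libraries. The genes were taken by name from the deposited tables as every protein-coding gene whose symbol is HOXA, HOXB, HOXC, HOXD, MEIS or PBX with a number. This gave 37 of the 18034 genes listed. They comprise 11 HOXA, 9 HOXB, 8 HOXC and 3 HOXD genes, MEIS2 and MEIS3, and 4 PBX genes. HOXB1, HOXC12, HOXD1, HOXD9 to HOXD13 and MEIS1 were not analysed here.

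There were 5 groups with 2 libraries each. In the knockdown experiment CDK9, the kinase subunit of P-TEFb, was knocked down by shRNA in all 3 groups. K56A cells then received CDK9 with a K56A change, WT cells received wild-type CDK9, and EV, which the labels do not spell out, carries neither by its label. In the inhibitor experiment EPZ cells received EPZ-5676, an inhibitor of the histone H3 lysine 79 methyltransferase DOT1L, at 10 µM for 72 h, and DMSO is its control, both with the genotype labelled as control. The labels name no promoter, vector or clone for the knockdown lines, and they do not say whether the 2 libraries of a group came from separate cultures. A p-value here therefore sets a difference against a spread that may be technical. CDK9 stood at 2609 and 2499 FPKM in K56A, 3060 and 2976 in WT, 16.4 and 19.5 in EV, 41.9 and 38.5 in EPZ and 43.9 and 37.6 in DMSO. DOT1L itself stood at 732.6 and 702.4 FPKM in K56A, 578.0 and 568.3 in WT, 324.2 and 342.7 in EV, 10.7 and 10.4 in EPZ and 12.6 and 12.6 in DMSO. Transcripts above 0 numbered 68188 to 71332 in the knockdown libraries and 54216 to 59913 in the inhibitor libraries. Of 10 markers of colon epithelium, 6 had a value, all of them at 1 FPKM or more in every library, including EPCAM and CDX2. CDH17, VIL1, LGALS4 and CDX1 were not among the values analysed here. Values were at hand for 1 of 5 leukocyte, 2 of 5 fibroblast, 2 of 3 endothelium, 1 of 3 neuron and glia and 0 of 3 embryonic markers. These stayed below 1 FPKM with 2 exceptions. The fibroblast marker COL1A1 was at 19.3 to 36.2 FPKM, and the neural marker SNAP25 at 1.24 to 2.32 FPKM in the inhibitor libraries.

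HOX genes encode homeodomain transcription factors that lie in 4 clusters and are switched on along the body axis in the order in which they sit in the cluster. PBX and MEIS proteins are homeodomain factors of the TALE class. They bind DNA together with HOX proteins, PBX as the direct partner and MEIS as a partner of PBX. In MLL-rearranged leukaemia the HOXA genes and MEIS1 are the textbook targets of DOT1L, while HOX genes in the gut keep a regional code set in the embryo. FPKM counts fragments by transcript length and library size, so levels can be set side by side between genes. Here FPKM of all transcripts of a gene were summed.

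Upstream sequences from RefSeq (GRCh38.p14) were at hand for 19 of the 37 genes, with 28 entries in all, of which those of HOXC4 and HOXC5 are the same window. The 250 bases before the start are shown for HOXA9, the most abundant HOX gene, for HOXD8 and PBX2, which come up in the comparisons, and for HOXA2, which holds the motifs known for its partners. They lie at chr7:27165538-27165787 for HOXA9, chr2:176129455-176129704 for HOXD8, chr6:32190203-32190452 for PBX2 and chr7:27102684-27102933 for HOXA2. HOXD8 is on the plus strand and the others are on the minus strand, and each start is also the start of a transcript listed in the deposited tables. Other listed transcripts with much of the FPKM start elsewhere, such as HOXA9-204 at 27170498 and HOXD8-203 at 176130357. Capitals mark matches on either strand to TGACAG (MEIS), TGATTNAT (PBX with HOX), CCAAT or TATAAA, and each sequence runs 5′ to 3′ toward the start.
HOXA9: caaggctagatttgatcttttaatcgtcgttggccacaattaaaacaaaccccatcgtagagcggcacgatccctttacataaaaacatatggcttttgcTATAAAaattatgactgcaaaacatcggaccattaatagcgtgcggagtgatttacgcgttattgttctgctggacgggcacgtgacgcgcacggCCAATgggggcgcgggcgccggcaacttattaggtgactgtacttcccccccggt
HOXD8: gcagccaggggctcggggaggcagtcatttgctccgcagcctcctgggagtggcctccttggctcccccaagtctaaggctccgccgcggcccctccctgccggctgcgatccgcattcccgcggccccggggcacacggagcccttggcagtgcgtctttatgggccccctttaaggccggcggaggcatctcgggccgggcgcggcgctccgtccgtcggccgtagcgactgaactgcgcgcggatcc
PBX2: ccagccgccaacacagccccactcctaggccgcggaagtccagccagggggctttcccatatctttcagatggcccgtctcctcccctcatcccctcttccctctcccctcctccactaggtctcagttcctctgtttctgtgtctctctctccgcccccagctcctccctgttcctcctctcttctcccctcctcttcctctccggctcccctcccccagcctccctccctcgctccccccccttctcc
HOXA2: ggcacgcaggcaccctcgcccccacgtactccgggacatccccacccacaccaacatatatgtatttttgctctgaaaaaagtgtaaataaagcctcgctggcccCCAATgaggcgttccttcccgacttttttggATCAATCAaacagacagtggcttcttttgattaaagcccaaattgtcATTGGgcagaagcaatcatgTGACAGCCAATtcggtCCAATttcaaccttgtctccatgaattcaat
HOXA9 holds CCAAT 55 bases and TATAAA 150 bases before its start, counted to the first base of the match. HOXA2 holds TGACAG 47 bases before, next to a CCAAT that follows it directly, the reverse complement of TGATTNAT 114 bases before, and 4 CCAAT matches in all. HOXD8 and PBX2 hold no match to these letters in this window. The 28 windows include none of a HOXB gene analysed here, and HOXA3 has more of them than any other gene. Among the 28 windows, TGACAG was found in 3, TGATTNAT in 2, CCAAT in 15 and TATAAA in 4, and the window of HOXC4 and HOXC5, which holds CCAAT, is counted for each gene. Over all 35116 windows of the same length in the table, TGACAG was found in 13.0%, TGATTNAT in 2.48%, CCAAT in 32.0% and TATAAA in 10.7%. The median G+C content was 58.8% for the 28 windows and 58.0% for all, and the median number of CpG was 16.5 for the 28 windows and 11 for all. A match describes letters and is not evidence of binding.

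Of the 37 genes, 24 reached 1 FPKM in every library. HOXC4 had values only in the knockdown tables and HOXC11 only in the K56A table. The summed FPKM of the 31 HOX genes was 290.6 and 287.5 in K56A, 292.4 and 277.8 in WT, 278.9 and 278.4 in EV, 277.8 and 279.5 in EPZ and 271.9 and 284.0 in DMSO. Both K56A libraries lay above both libraries of EV, EPZ and DMSO, and the lowest of the 10 totals was 271.9 FPKM and the highest 292.4 FPKM.

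**Figure D1:**
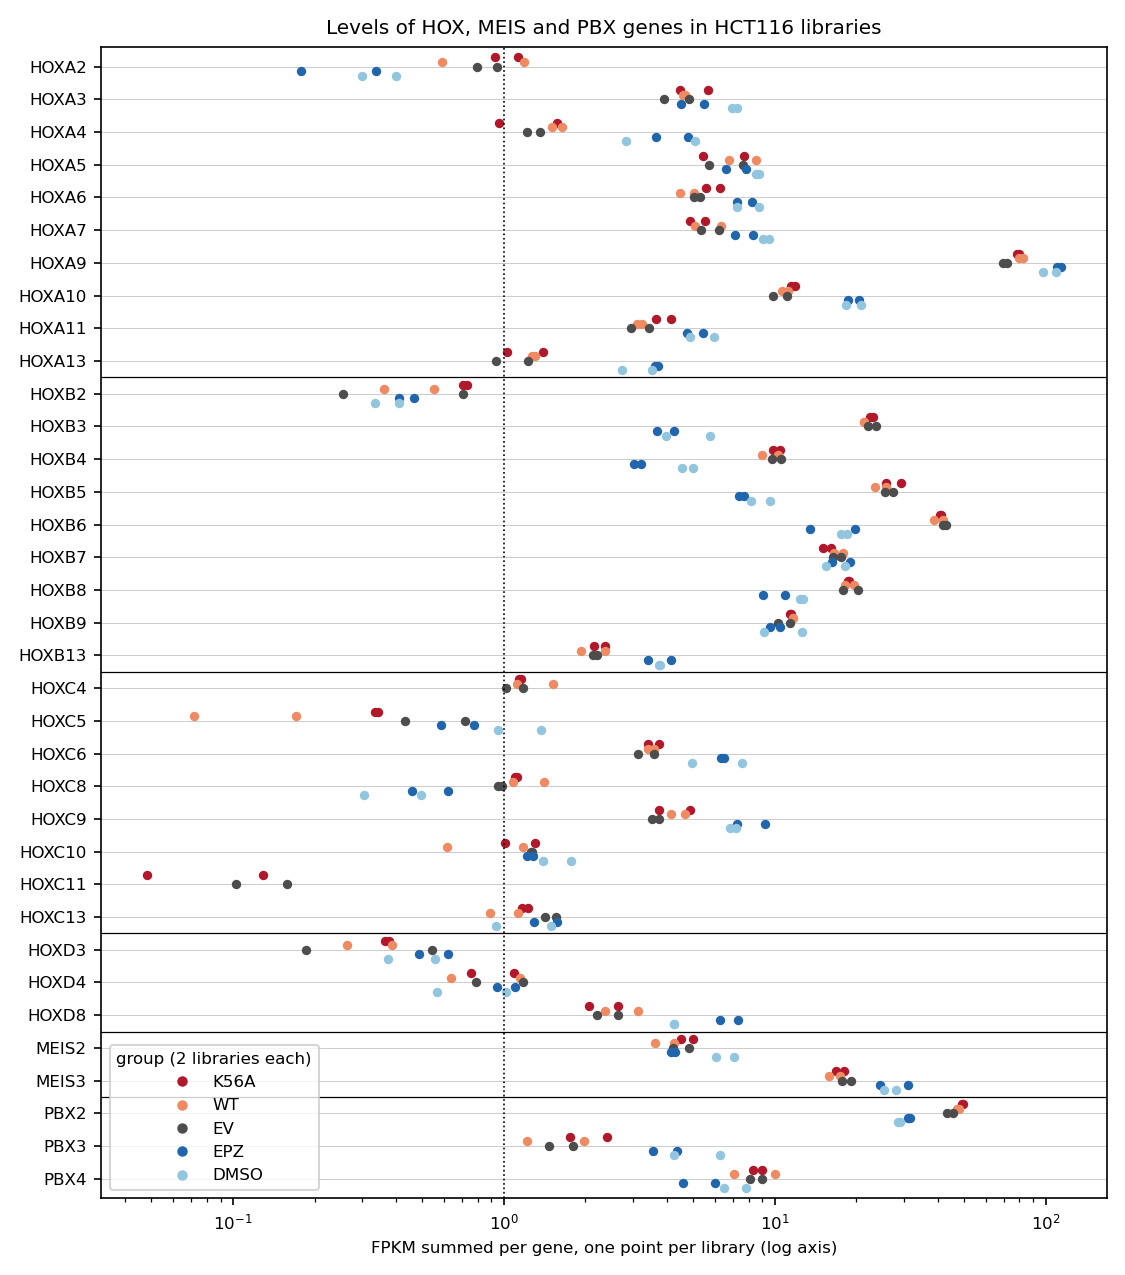
FPKM summed per gene for 35 of the 37 genes, 1 point per library on a log axis, coloured by group, with a dotted line at 1 FPKM. HOXA9 lies at the right in all 10 libraries, and the knockdown and inhibitor libraries part at HOXB3 to HOXB6.

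HOXA9 (chromosome 7, 27162438 to 27170498, minus strand, GRCh38), a posterior gene that takes part in blood and limb development, was the highest HOX gene. It had 78.6 and 80.0 FPKM in K56A, 82.3 and 80.0 in WT, 71.8 and 69.8 in EV, 109.8 and 114.2 in EPZ and 97.6 and 109.5 in DMSO. It made up 59.3% to 66.7% of the FPKM of its cluster. HOXA10, its neighbour, had 11.9 and 11.5 FPKM in K56A, 10.6 and 11.2 in WT, 11.1 and 9.81 in EV, 18.7 and 20.5 in EPZ and 18.4 and 20.8 in DMSO. HOXA5, which acts in lung and gut development, had 5.44 and 7.69 FPKM in K56A, 8.56 and 6.76 in WT, 5.73 and 7.67 in EV, 6.59 and 7.82 in EPZ and 8.55 and 8.75 in DMSO. The anterior HOXA2, which patterns the hindbrain, was near 1 FPKM or below in the knockdown libraries, and HOXA13, the terminal gene of the cluster, ranged from 0.935 to 3.72 FPKM over the 10 libraries. Of HOXA9 FPKM, 38.0% to 55.3% fell on transcripts annotated as protein coding. The rest was on the processed transcripts HOXA9-204 and HOXA9-206. The middle genes HOXA3, HOXA4, HOXA6 and HOXA7 pattern the neck and trunk. HOXA3 ranged over 3.90 to 5.67 FPKM in the knockdown libraries and 4.52 to 7.27 FPKM in the inhibitor libraries, and HOXA4 over 0.962 to 1.63 FPKM in the knockdown libraries and 2.83 to 5.07 FPKM in the inhibitor libraries. HOXA6 ranged over 4.46 to 6.29 FPKM in the knockdown libraries and 7.23 to 8.73 FPKM in the inhibitor libraries, and HOXA7 over 4.88 to 6.32 FPKM in the knockdown libraries and 7.13 to 9.56 FPKM in the inhibitor libraries. By medians HOXA7 stood above HOXA5 in the inhibitor libraries, at 8.67 and 8.18 FPKM. HOXA11, next to HOXA13, ranged over 2.95 to 4.15 FPKM in the knockdown libraries and 4.73 to 5.98 FPKM in the inhibitor libraries.

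In the HOXB cluster HOXB6, HOXB5 and HOXB7, which pattern the trunk, had the highest mean over all 10 libraries. The order below HOXB6 differed between the experiments. By medians, HOXB3 and HOXB8 also stood above HOXB7 in the knockdown libraries, and HOXB7, HOXB8 and HOXB9 stood above HOXB5 in the inhibitor libraries. HOXB6 had 40.9 and 41.2 FPKM in K56A, 41.6 and 38.8 in WT, 42.8 and 41.9 in EV, 19.7 and 13.4 in EPZ and 17.5 and 18.5 in DMSO. HOXB5 had 29.3 and 25.6 FPKM in K56A, 25.7 and 23.5 in WT, 25.6 and 27.2 in EV, 7.67 and 7.39 in EPZ and 9.60 and 8.20 in DMSO. HOXB7 had 15.1 and 16.2 FPKM in K56A, 17.8 and 16.5 in WT, 17.6 and 16.4 in EV, 16.3 and 18.9 in EPZ and 15.5 and 18.1 in DMSO. The knockdown libraries were above the inhibitor libraries for HOXB6 and HOXB5, and the 2 sets overlapped for HOXB7. HOXB8 ranged over 17.8 to 20.4 FPKM in the knockdown libraries and 9.08 to 12.7 FPKM in the inhibitor libraries, HOXB4 over 8.98 to 10.5 FPKM in the knockdown libraries and 3.01 to 4.97 FPKM in the inhibitor libraries, and HOXB9 over 10.3 to 11.7 FPKM in the knockdown libraries and 9.16 to 12.6 FPKM in the inhibitor libraries. HOXB13, a terminal gene known from prostate and hindgut, stood at 1.93 to 4.13 FPKM. HOXB2 stayed under 1 FPKM in every library.

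HOXC and HOXD genes were lower. HOXC9, a thoracic patterning gene, had 4.87 and 3.75 FPKM in K56A, 4.65 and 4.15 in WT, 3.75 and 3.54 in EV, 7.23 and 9.23 in EPZ and 7.20 and 6.86 in DMSO. HOXC6, active in the same part of the trunk, had 3.40 and 3.75 FPKM in K56A, 3.41 and 3.59 in WT, 3.13 and 3.58 in EV, 6.50 and 6.34 in EPZ and 7.59 and 4.96 in DMSO. HOXC13, known for hair and nail keratin genes, had 1.17 and 1.23 FPKM in K56A, 1.13 and 0.888 in WT, 1.55 and 1.42 in EV, 1.29 and 1.57 in EPZ and 1.499 and 0.938 in DMSO. HOXC10 ranged over 0.615 to 1.301 FPKM in the knockdown libraries and 1.22 to 1.76 FPKM in the inhibitor libraries, HOXC8 over 0.954 to 1.40 FPKM in the knockdown libraries and 0.304 to 0.622 FPKM in the inhibitor libraries, and HOXC5 over 0.0719 to 0.721 FPKM in the knockdown libraries and 0.587 to 1.37 FPKM in the inhibitor libraries. HOXC4 was at 1.02 to 1.52 FPKM in the knockdown libraries, and HOXC11 at 0.0482 and 0.129 FPKM in K56A and 0.102 and 0.158 in EV. Only HOXD8 was above 2 FPKM in every library among the 3 HOXD genes. HOXD8 had 2.07 and 2.63 FPKM in K56A, 3.13 and 2.36 in WT, 2.21 and 2.65 in EV, 6.26 and 7.31 in EPZ and 4.25 and 4.26 in DMSO, HOXD4 stood between 0.566 and 1.18 FPKM, and HOXD3 between 0.186 and 0.620 FPKM.

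Among the partners, PBX2 and MEIS3 were the most abundant. PBX2, the broadly expressed PBX gene, had 49.3 and 49.7 FPKM in K56A, 47.7 and 47.2 in WT, 43.4 and 45.7 in EV, 31.0 and 31.5 in EPZ and 28.5 and 29.1 in DMSO. PBX4 had 8.94 and 8.29 FPKM in K56A, 10.0 and 7.10 in WT, 8.95 and 8.10 in EV, 5.997 and 4.59 in EPZ and 7.83 and 6.48 in DMSO. PBX3 had 2.41 and 1.75 FPKM in K56A, 1.22 and 1.98 in WT, 1.80 and 1.46 in EV, 3.55 and 4.37 in EPZ and 6.25 and 4.24 in DMSO. PBX2 was the highest PBX gene in all 10 libraries. MEIS3 had 16.9 and 18.0 FPKM in K56A, 15.8 and 17.4 in WT, 17.7 and 19.2 in EV, 31.0 and 24.5 in EPZ and 28.0 and 25.4 in DMSO. MEIS2, which acts in heart and palate, had 4.49 and 5.01 FPKM in K56A, 4.24 and 3.61 in WT, 4.83 and 4.21 in EV, 4.28 and 4.13 in EPZ and 7.05 and 6.09 in DMSO, so MEIS3 stood above it in every library.

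**Figure D2:**
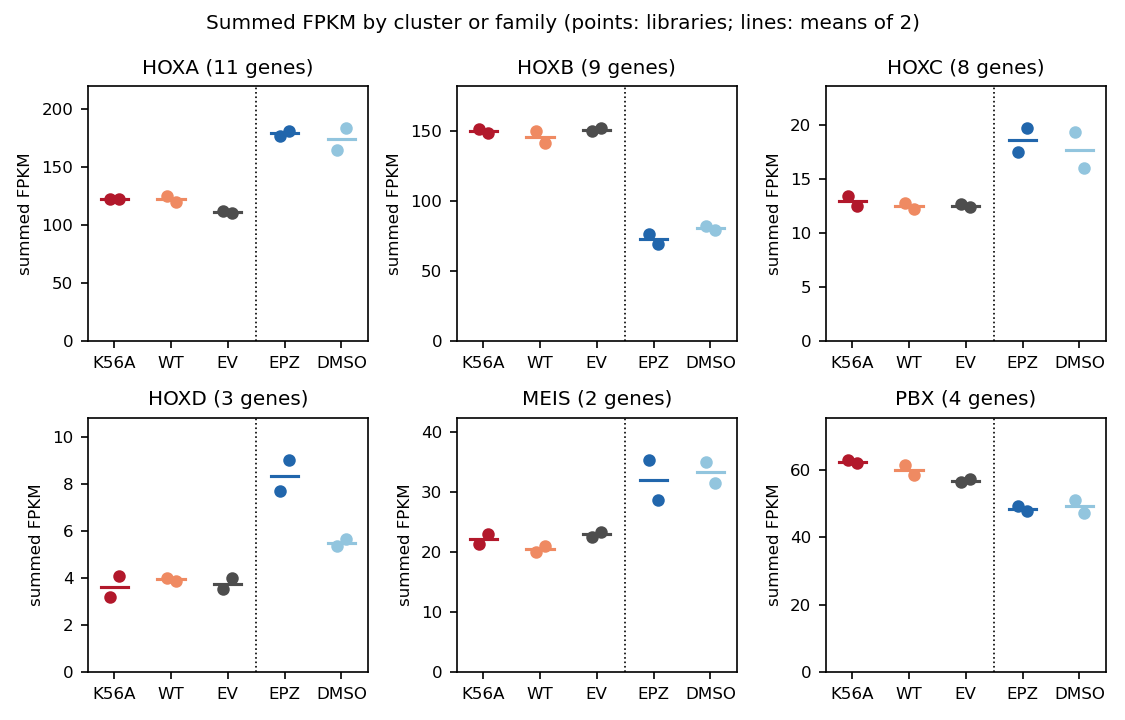
Summed FPKM per HOX cluster and for MEIS and PBX genes (y axes start at 0 and differ between panels), with points for libraries and lines for the mean of 2. HOXB lies at 142 to 152 in the 6 knockdown libraries and at 69.6 to 82.5 in the 4 inhibitor libraries, and HOXA lies at 110 to 125 in the knockdown libraries and at 165 to 183 in the inhibitor libraries.

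The cells of the 2 experiments differed in which cluster led. HOXA took 39.5% to 43.1% of HOX FPKM in the knockdown libraries and 60.6% to 64.9% in the inhibitor libraries. HOXB took 51.1% to 54.6% in the knockdown libraries and 24.9% to 30.3% in the inhibitor libraries. The tables were normalized separately and every knockdown library belongs to one experiment and every inhibitor library to the other, so experiment, line and treatment cannot be told apart, and no test was made. Values that moved with this split were DOT1L and CDK9, given above, mitochondrially encoded RNA, at 25.3% to 27.9% of FPKM in the knockdown libraries and 17.3% to 19.3% in the inhibitor libraries, and the summed colon epithelium markers, at 1609 to 1728 FPKM in the knockdown libraries and 2523 to 2754 FPKM in the inhibitor libraries. The colon epithelium markers did not move together. KRT8, KRT18, KRT19 and CDX2 were lower in every knockdown library than in every inhibitor library, while EPCAM and CDH1 were higher. EPCAM stood at 338.0 to 384.9 FPKM in the knockdown libraries and 139.5 to 184.3 FPKM in the inhibitor libraries. CDH1 stood at 37.4 to 40.8 and 25.9 to 27.8 FPKM. The 2 fibroblast markers with a value summed to 27.6 to 36.3 FPKM in the knockdown libraries and 19.4 to 23.2 FPKM in the inhibitor libraries. The neural marker SNAP25 stood at 0 to 0.238 FPKM in the knockdown libraries and 1.24 to 2.32 in the inhibitor libraries. The part of these in the split was not tested, and in bulk RNA fewer cells with a transcript and less of it per cell cannot be told apart.

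Gene by gene, 32 of the 37 could be compared. All 6 knockdown libraries were above all 4 inhibitor libraries for 8 of them (25.0%), beside 29.9% of the 13864 genes compared. All 6 were below for 15 (46.9%), beside 37.2% of all genes. The median of the knockdown libraries was at least 2 times that of the inhibitor libraries for 6 genes, beside 12.7% of all genes, and at most 0.5 times for 6, beside 11.9%. After each library was rescaled by its median ratio, the same 8 and 15 genes were found, beside 33.8% of all genes above and 33.1% below. No difference between the shares of these genes and of all genes was tested.

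Of the 5 HOXB genes above in all knockdown libraries, HOXB3 to HOXB6 are neighbours, and HOXB8 is parted from them by HOXB7. HOXB3, HOXB4, HOXB5 and HOXB6 had medians of 22.3, 10.1, 25.7 and 41.4 FPKM in the knockdown libraries, against 4.11, 3.87, 7.94 and 18.0 FPKM in the inhibitor libraries. The ratios were 5.43, 2.61, 3.23 and 2.30, beside a median ratio of 0.931 over all genes compared. HOXB3 had 5 listed transcripts in the inhibitor experiment, against 9 in WT and 10 in K56A. The part of this in its ratio was not tested. The library values of HOXB3 (chromosome 17, 48548870 to 48604912, minus strand) were 23.0 and 22.5 FPKM in K56A, 21.3 and 21.3 in WT, 22.1 and 23.7 in EV, 3.67 and 4.23 in EPZ and 5.77 and 3.98 in DMSO. HOXB8 followed at a ratio of 1.61, while HOXB7, HOXB9 and the distant HOXB13 had ratios of 0.955, 1.14 and 0.581. The gene SKAP1 beyond the anterior end had 4.70 FPKM in the knockdown libraries and 4.35 FPKM in the inhibitor libraries (medians). Beyond the other end the nearest gene with a ratio, TTLL6, had 0.937 FPKM in the knockdown libraries and 0.148 FPKM in the inhibitor libraries, a ratio of 6.34, and the next, CALCOCO2, had 38.5 FPKM in the knockdown libraries and 92.7 FPKM in the inhibitor libraries. HOXB3 spans HOXB4 and HOXB5 and overlaps HOXB6 on the same strand, so their reads may be shared out between them by the authors' estimate.

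In the HOXA cluster the direction was mostly the opposite. Of 11 genes, 8 were below in all 6 knockdown libraries and HOXA2 alone was above. The hindbrain gene HOXA2 had 1.13 and 0.930 FPKM in K56A, 1.19 and 0.592 in WT, 0.799 and 0.940 in EV, 0.178 and 0.339 in EPZ and 0.299 and 0.400 in DMSO. The noncoding HOTAIRM1 beside it had medians of 9.53 FPKM in the knockdown libraries and 13.1 FPKM in the inhibitor libraries. HOXA9 had a ratio of 0.723, HOXA10 of 0.569, HOXA4 of 0.340 and HOXA13 of 0.349. At the posterior end, HOXA10-AS had medians of 6.36 FPKM in the knockdown libraries and 15.4 FPKM in the inhibitor libraries, and HOXA11-AS of 2.22 FPKM in the knockdown libraries and 0.813 FPKM in the inhibitor libraries. Antisense genes overlap 9 of the 37 genes, among them HOXA9, HOXA10 and HOXA11, and without a stated strand setting reads of the 2 strands cannot be told apart.

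**Figure D3:**
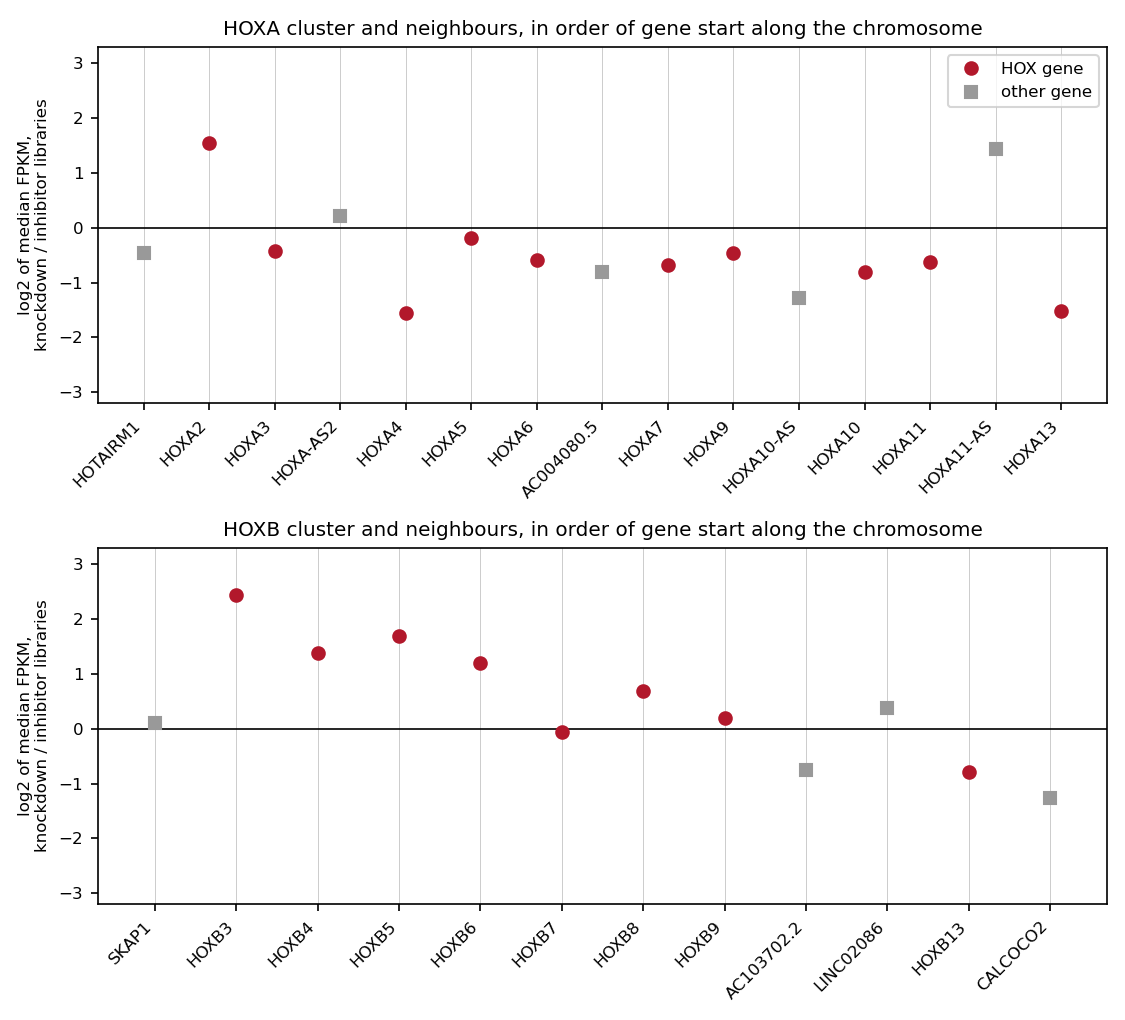
Log2 of the median FPKM of the 6 knockdown libraries over that of the 4 inhibitor libraries, for HOX genes (circles) and other genes (squares) in the order of their start along the chromosome, with 0 for equal medians and without low genes such as HOXB2 and TTLL6. HOXB3 to HOXB6 lie above 0 as neighbours, and the HOXA genes shown, other than HOXA2, lie below 0.

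For the partners, PBX2 was above in all knockdown libraries, with medians of 47.5 FPKM in the knockdown libraries and 30.1 FPKM in the inhibitor libraries. PBX3 was below, at a ratio of 0.412, and so was MEIS3, at 0.657. MEIS2 and PBX4 overlapped between the experiments. HOXD8 was below at a ratio of 0.474 and HOXC8, a thoracic gene, above at 2.29.

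The inhibitor comparison asks whether HOX, MEIS and PBX levels differ after 72 h of EPZ. Of the 37 genes, 35 were listed in that table and 30 passed the filter of at least 1 FPKM in at least 2 libraries. HOXA2, HOXB2, HOXC5, HOXC8 and HOXD3 did not. None of the 30 passed limma's test at an adjusted p under 0.05, where 1 of 13130 genes passed (0.00762%). At an unadjusted p under 0.05 there were 4 of 30, beside 5.83% of all genes. The libraries of EPZ and DMSO did not overlap for 15 of the 30, beside 37.4% of all genes. Of these, 6 were higher in EPZ, beside 18.6% of all genes, and 9 lower, beside 18.8%. The median log2 fold change of the 30 was -0.02, and that of all genes 0.00, on the scale of log2(FPKM + 0.5), which understates differences of low genes.

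HOXD8 had the smallest p, with 6.26 and 7.31 FPKM in EPZ, against 4.25 and 4.26 FPKM in DMSO. Both EPZ libraries were above both DMSO libraries, the log2 fold change was 0.61 ± 0.16 (SE, n = 2 each) and the adjusted p from limma was 0.756. MEIS2 had 4.28 and 4.13 FPKM in EPZ, against 7.05 and 6.09 FPKM in DMSO, without overlap, at -0.59 ± 0.16 and the same adjusted p of 0.756. With protein-coding transcripts only, the MEIS2 value was -0.18 and its adjusted p 0.811. Those transcripts held 69.2% and 86.9% of MEIS2 FPKM in EPZ, against 52.3% and 62.6% in DMSO. HOXB4, known for expanding blood stem cells, had 3.20 and 3.01 FPKM in EPZ, against 4.97 and 4.55 FPKM in DMSO, at -0.54 ± 0.17 and adjusted p = 0.756. HOXA9 had an average of 112.0 ± 3.09 FPKM in EPZ and 103.6 ± 8.43 FPKM in DMSO (SD, n = 2 each). Its log2 fold change was 0.12, with a 95% interval of -0.14 to 0.37. HOXA3, also at an unadjusted p under 0.05, was lower in both EPZ libraries, at -0.48 ± 0.16 and adjusted p = 0.756 from limma. Of the 10 HOXA genes tested, 5 were higher and 5 lower in EPZ.

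The 95% intervals of all 30 genes lay within a 2-fold difference of FPKM + 0.5 either way, those of 13 within 1.5-fold, and 26 included 0. For genes near 1 FPKM the bounds in FPKM itself are wider. The count depended on 1 library. Without DMSO replicate 2, 1592 of 13130 genes passed, among them HOXD8 (0.61), MEIS2 (-0.68), HOXB4 (-0.60), PBX3 (-0.60) and PBX4 (-0.53), with log2 fold changes in brackets. Without any other library of that experiment 33 to 76 genes passed and no HOX, MEIS or PBX gene did. Leaving out DMSO replicate 2 sets EPZ against DMSO replicate 1 alone. That library had 54216 transcripts above 0, against 59403 to 59913 in the other inhibitor libraries. Its relative depth was the lowest, with the others at 1.07 to 1.29 times it. The part of this in the genes passing was not tested. The DMSO replicates were the least alike of the 5 pairs, with r = 0.981 across genes, which are not independent replicates.

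**Figure D4:**
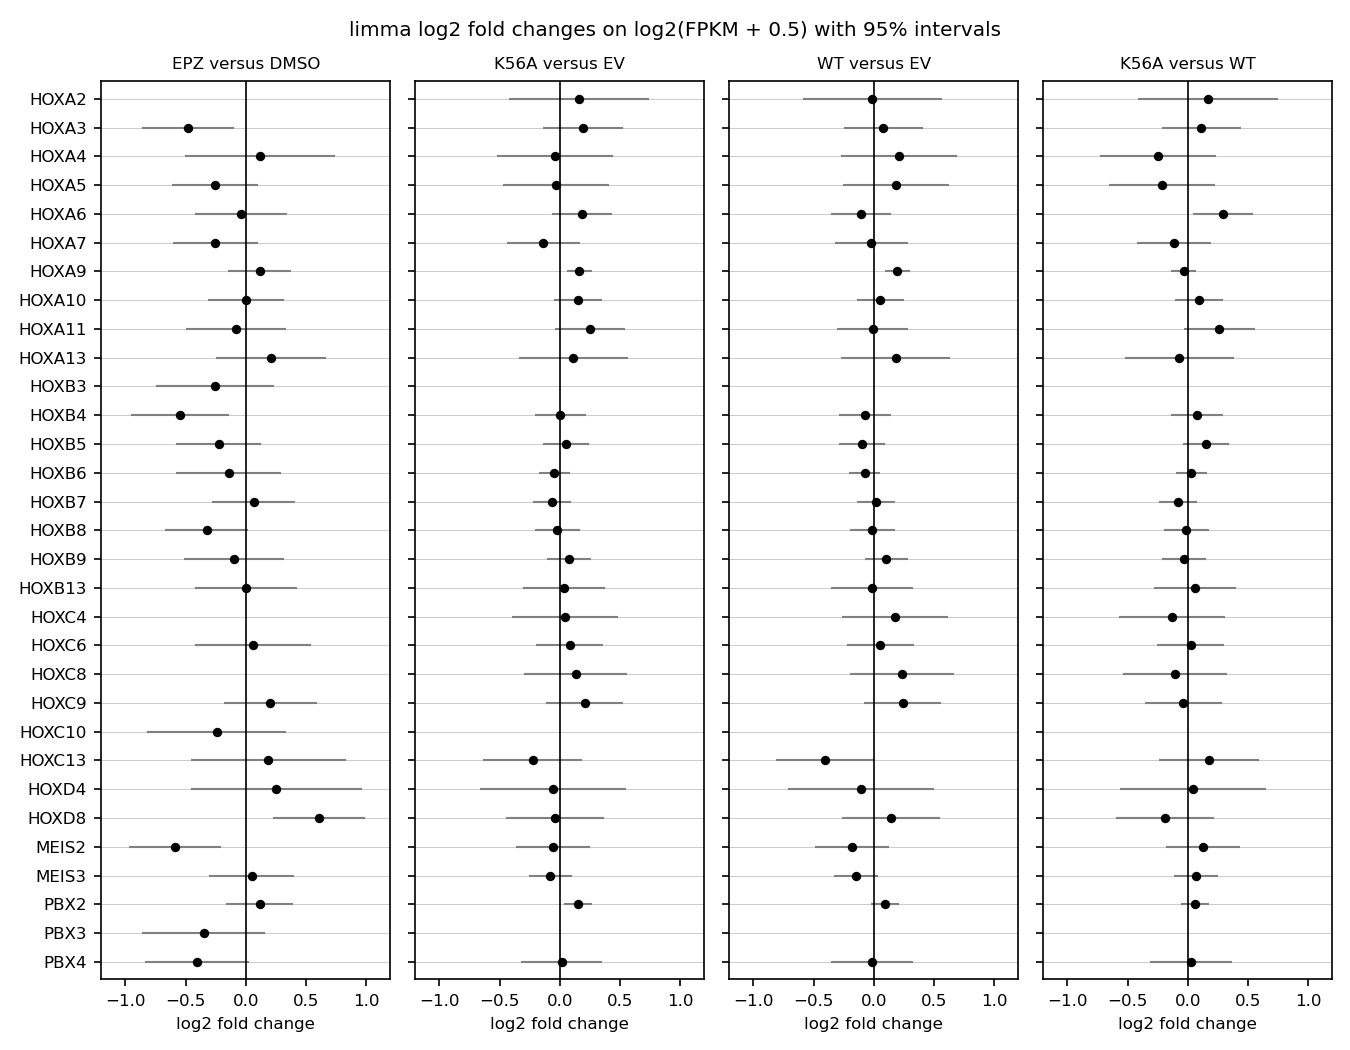
Log2 fold changes from limma (points) with 95% intervals (lines) for the named genes tested in each of the 4 comparisons, with 0 for no difference. All intervals lie between -1 and 1, and those of HOXA9 in the 2 comparisons with EV lie above 0 without passing the adjusted threshold.

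The knockdown comparisons set K56A and WT beside EV and beside each other. DOT1L also differed between these groups, at 732.6 and 702.4 FPKM in K56A, 578.0 and 568.3 in WT and 324.2 and 342.7 in EV. Both CDK9 and DOT1L passed limma's test as higher in K56A and in WT beside EV. In K56A beside WT, DOT1L passed as higher. The form of CDK9 and the level of DOT1L therefore cannot be told apart in these comparisons. A total of 29 genes were tested. HOXB2, HOXC5, HOXC11 and HOXD3 were under the filter. Genes such as HOXB3, HOXC10, PBX3 and HOXC11 had over 5% of their FPKM in transcripts listed in only 1 of the 2 tables and were left out. K56A and WT share the EV libraries.

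In K56A beside EV none of the 29 passed limma's test, where 88 of 12077 genes passed (0.729%), 21 higher and 67 lower. Without any 1 of the 6 libraries that count was 6 to 36 genes, again with no HOX, MEIS or PBX gene. At an unadjusted p under 0.05 there were 2 of 29, beside 15.0% of all genes. The groups did not overlap for 10 of 29, beside 45.4% of all genes. HOXA9 averaged 79.3 ± 0.958 FPKM in K56A and 70.8 ± 1.40 FPKM in EV (SD, n = 2 each). Its log2 fold change was 0.16 ± 0.04 (SE) with adjusted p = 0.141 from limma. With protein-coding transcripts only, the HOXA9 value was 0.30 and its adjusted p 0.263, and over all alternatives the adjusted p ran from 0.123 to 0.386. PBX2 had 49.3 and 49.7 FPKM in K56A, against 43.4 and 45.7 FPKM in EV, a log2 fold change of 0.15 ± 0.05 and adjusted p = 0.205. HOXA11, which acts in limb and kidney development, had 4.15 and 3.64 FPKM in K56A, against 3.43 and 2.95 FPKM in EV, at 0.25 ± 0.12 and adjusted p = 0.386. These 3 genes were higher in both K56A libraries than in both EV libraries. All 29 intervals lay within a 2-fold difference, 25 of them within 1.5-fold.

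WT beside EV gave 62 genes of 12077 that passed (0.513%), 10 higher and 52 lower, and 2 to 10 genes when any 1 library was left out. None of the 29 HOX, MEIS and PBX genes passed. The count at an unadjusted p under 0.05 was 1 of 29, beside 13.4% of all genes, and 11 of 29 did not overlap, beside 43.4%. HOXA9 again had the smallest p, with 82.3 and 80.0 FPKM in WT, against 71.8 and 69.8 FPKM in EV, and a log2 fold change of 0.20 ± 0.04 with adjusted p = 0.0985. Restricted to protein-coding transcripts it was 0.11 with adjusted p = 0.714, and over all alternatives the adjusted p ran from 0.0822 to 0.714. HOXC13 had 1.13 and 0.888 FPKM in WT, against 1.55 and 1.42 FPKM in EV, at -0.40 ± 0.18 and adjusted p = 0.377. It lay lower in both WT libraries, at levels near 1 FPKM. All 29 intervals lay within a 2-fold difference of FPKM + 0.5, 21 of them within 1.5-fold.

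Between K56A and WT 7 of 12077 genes passed (0.0580%), 1 to 19 when any 1 library was left out, and no HOX, MEIS or PBX gene did. There was 1 of 29 at an unadjusted p under 0.05, beside 12.8% of all genes, and 7 of 29 did not overlap, beside 45.4%. HOXA6, a trunk patterning gene, had 6.29 and 5.59 FPKM in K56A, against 5.05 and 4.46 FPKM in WT, and a log2 fold change of 0.29 ± 0.11 with adjusted p = 0.304. HOXA11 had 4.15 and 3.64 FPKM in K56A, against 3.09 and 3.22 FPKM in WT, at 0.26 ± 0.12 and adjusted p = 0.428. HOXB5 had 29.3 and 25.6 FPKM in K56A, against 25.7 and 23.5 FPKM in WT, at 0.15 ± 0.08 and adjusted p = 0.469, and between 0.06 and 0.25 over the alternatives. HOXA6 and HOXA11 did not overlap, and HOXB5 did. HOXA9 differed by -0.03, with a 95% interval of -0.13 to 0.06. All 29 intervals lay within a 2-fold difference of FPKM + 0.5, 24 of them within 1.5-fold.

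By cluster, the median log2 fold change in K56A beside EV was 0.15 for 11 HOXA genes, 0.01 for 7 HOXB, 0.08 for 5 HOXC and -0.05 for 2 HOXD genes. WT beside EV gave 0.06 for HOXA, -0.02 for HOXB, 0.18 for HOXC and 0.02 for HOXD. In EPZ beside DMSO the medians were -0.02 for 10 HOXA, -0.18 for 8 HOXB, 0.12 for 4 HOXC and 0.43 for 2 HOXD genes. These are descriptions, since genes of a cluster are not replicates. The median over all genes tested was 0.03, 0.01 and 0.00 in the same order of comparisons.

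The single transcripts of these genes hold a few calls in the authors' deposited table. There, 0 of 102 transcripts of these genes passed in EPZ beside DMSO (1.19% of all transcripts), 1 of 101 in WT beside EV (3.33%) and 5 of 106 in K56A beside EV (3.80%). In the authors' deposited table HOXB3-207 was listed at 3.26 and 2.31 FPKM in K56A, against 0 and 0 in EV, with an adjusted p of 2.36e-08. The summed HOXB3 level was 23.0 and 22.5 FPKM in K56A, 21.3 and 21.3 in WT and 22.1 and 23.7 in EV. The K56A sum includes HOXB3-207. Without that transcript the K56A sum was 19.8 and 20.2 FPKM, below both WT and both EV libraries. HOXB3-207 was also listed at 0.900 and 0.953 FPKM in EPZ, against 0 and 0.0393 in DMSO, with an adjusted p of 0.158 in the authors' deposited table. The sum of HOXB3 was 3.67 and 4.23 FPKM in EPZ, against 5.77 and 3.98 FPKM in DMSO. MEIS2-205 was listed at 0 in both K56A and both WT libraries, against 0.249 and 0.176 FPKM in EV, with adjusted p of 0.00857 and 0.0213 in the authors' deposited table. MEIS2-201 and MEIS2-204, both listed at 0 in EV and at 0.292 FPKM or less in K56A, and HOXB6-201, at 3.61 and 2.93 FPKM in K56A, against 5.69 and 4.94 in EV, made up the rest of the 5. Transcripts of one gene share reads, so a value listed at 0 may be a failed estimate.

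**Figure D5:**
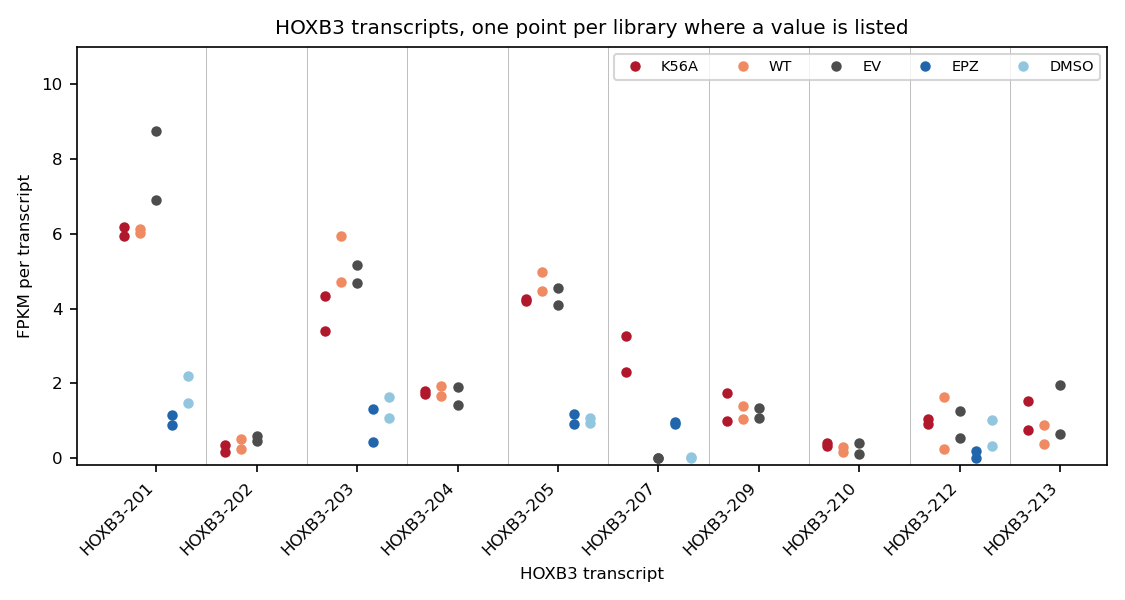
FPKM of each listed HOXB3 transcript, 1 point per library, by group. HOXB3-207 lies at 2.31 and 3.26 in K56A and at 0 in EV, while HOXB3-201 lies at 5.94 and 6.19 in K56A and at 6.91 and 8.76 in EV.

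Related genes were counted from lists chosen for their known roles. None of the 34 Polycomb genes, which keep HOX clusters silent, passed in EPZ beside DMSO, with 34 tested, nor in any knockdown comparison, with 31 tested. The same held in all 4 comparisons for a further list of 17 genes. It joins genes of the MLL and menin complexes, which keep HOX genes active, with others such as MLLT3, MLLT10, AFF4 and ELL. Of the retinoic acid list, whose pathway switches HOX genes on in the embryo, 8 genes were tested in each comparison and none passed. TALE relatives, 7 tested in the inhibitor fit and 5 in the knockdown fit, had no gene passing, and the lowest adjusted p was 0.0523, for TGIF1 in K56A beside EV, at 111.5 FPKM in K56A and 94.8 FPKM in EV (means). Neither CDX2 nor GBX2, which act upstream of or beside HOX genes, passed. CDX2 averaged 6.34 FPKM in EPZ and 7.69 FPKM in DMSO, and 3.56 FPKM in K56A, 2.45 FPKM in WT and 2.47 FPKM in EV. Of the noncoding genes of the clusters with a HOX antisense name or known as HOTAIR, HOTAIRM1, HOTTIP, HAGLR or HAGLROS, 4 were tested in each experiment and none passed. Other noncoding genes there, such as AC103702.2, LINC02086 and AC012531.1, were not in this list. HOXC-AS1, opposite HOXC9, averaged 1.67 FPKM in EPZ and 0.833 FPKM in DMSO, at an adjusted p of 0.756.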

How the data were processed

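RNA of HCT116 cells was measured in 10 libraries, in 5 groups of 2. The authors deposited 3 tables with FPKM per transcript, of 4 libraries each, with EV in both knockdown tables. The submitters' processing notes name STAR 2.7.1a, RSEM 1.3.3, Trim Galore 0.6.6, DESeq2 1.32.0 and build GRCh38, without roles. Annotation release and strand use are not given in the sources. The authors' log2 fold changes and p-values per transcript came from edgeR (inhibitor table) and DESeq2 (knockdown tables), per the file headers, and are quoted only as deposited. The 4 summary columns were not used. Tables list transcripts above 0 in at least 2 libraries.

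FPKM were summed per gene. K56A was multiplied by 1.000661 to match EV between tables, and in tests only transcripts of both knockdown tables were summed. Genes with over 5% of FPKM in transcripts of 1 table (1773) were left out. The test was limma 3.58.1 under R 4.3.3 on log2(FPKM + 0.5), for genes reaching 1 FPKM in at least 2 libraries, two-sided and with an intensity trend. Benjamini-Hochberg adjustment ran over 13130 genes (EPZ versus DMSO) or 12077 genes (1 fit of 6 knockdown libraries). The test was checked on simulated data, with the spread of each gene taken from a smooth trend over level. Real genes vary around such a trend, so the check does not tell how many real differences were missed. Plots were drawn with matplotlib 3.10.9, and sums made with pandas 2.3.3 and numpy 2.4.6 in Python 3.11.15.

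The tables hold no counts, so depth is unknown and no counting error can be given. Ratios of low values put relative depth at 1 to 1.29 times that of DMSO replicate 1 and at 0.869 to 1.21 times that of EV replicate 1.

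The members and lists were chosen with earlier results of these data known. Values per library are given for the 3 genes of each HOX cluster with the highest mean over all 10 libraries, which pools both experiments, MEIS and PBX genes, and the 3 smallest p-values per comparison. A pair of member genes enters the counts and sums but is not reported one by one here. HOXB3, HOXA2, HOXA3 in EPZ beside DMSO, the transcripts and TGIF1, CDX2 and HOXC-AS1 were picked after their values were seen. Rescaling between the experiments was chosen after seeing the data.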

Additional observations from a re-analysis of the deposited data

Results flagged for a closer look

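The transcript HOXB3-207 was listed at 3.256 FPKM in K56A replicate 1 and 2.307 FPKM in K56A replicate 2, against 0 in both EV libraries. It stands out because it lies outside the gene-level comparisons, being listed in the K56A table and not in the WT table, and because it exceeds its level in EV. Its own part in HOXB3 RNA was not tested, and the summed HOXB3 level was 23.0 and 22.5 FPKM in K56A, against 22.1 and 23.7 FPKM in EV. Without HOXB3-207 the K56A sum was 19.8 and 20.2 FPKM.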

How the results depend on the processing

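With 12 alternatives for the inhibitor comparison and 15 for the knockdown comparisons, 5 of 1635 values of HOX, MEIS and PBX genes passed, all of them in EPZ versus DMSO without DMSO replicate 2, where the count of these genes was 5. Their count without 1 library ranged from 0 to 5 there and was 0 in the other comparisons. Of the 1635 values, 103 had another sign than the reported one, and 0 of the 169 values of the 12 smallest-p results did. Among those, adjusted p ranged from 0.0108 to 1 for MEIS2, 0.0197 to 1 for HOXD8 and 0.0483 to 1 for HOXB4 in EPZ versus DMSO. Over all genes, the number passing without 1 library, where the lone library of a group is assumed to vary like the others, ranged from 33 to 1592 for EPZ versus DMSO, 6 to 36 for K56A versus EV, 2 to 10 for WT versus EV and 1 to 19 for K56A versus WT. For EPZ versus DMSO it was 0 with a pseudocount of 0.1, without the filter or without the trend, and 3 with coding transcripts only. For K56A versus EV it was 53 without the filter, 40 with coding transcripts only and 4 without the trend. For WT versus EV the same settings gave 40, 38 and 1. For K56A versus WT they gave 1, 1 and 0, with 16 at FPKM of at least 2 and 30 with all listed transcripts. The cause was not tested. With the replicate number as a block, 2 genes passed for EPZ versus DMSO, 50 for K56A versus EV, 26 for WT versus EV and 3 for K56A versus WT, with 0 of these genes in each. The labels do not say whether libraries of the same number were handled together. Correlations of their deviations were 0.245 for EPZ and DMSO, -0.01 for K56A and EV, 0.03 for WT and EV and -0.03 for K56A and WT. A shared batch was not tested. Rescaling each library moved the median of all genes by less than 0.1. With 2 libraries a group and unknown depth, small differences of genes near 1 FPKM were not detectable, and larger ones of higher genes could also be missed. In EPZ versus DMSO, HOXD8 averaged 6.78 FPKM in EPZ and 4.25 FPKM in DMSO, a log2 fold change of 0.61, and did not pass.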
